A study of Homo sapiens with 20 samples.

Results

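The phagocyte NADPH oxidase is the enzyme that makes superoxide in neutrophils, eosinophils and monocytes. The 6 genes described here encode parts of it: CYBB and CYBA for the membrane-bound pair, NCF1 and NCF4 for cytosolic subunits, and RAC1 and RAC2 for the GTPases that join them. They were chosen by gene symbol for their known function, with earlier results of these data known, and make up 6 of the 28051 named genes in the RNAseq files. All 6 passed the filter on low values (1 or more groups averaging over 3 on the log2 scale), together with 13256 genes in all. Of the 8286 ATACseq regions, 4 listed a member in the deposited gene column, namely 2 for CYBB, 1 for CYBA and 1 for NCF4. No region listed NCF1, RAC1 or RAC2.

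The samples were HL60 cells, an AML line of promyelocytic character. Cells labelled HK3-null were made with CRISPR and compared with Cas9 expressing control cells, both after puromycin selection and after growth from single clones. Each genotype received 1 µM ATRA, the retinoid that drives HL60 toward neutrophil-like cells, or 0.01% DMSO, the solvent, for 36 h, so that all 4 groups share the Cas9 vector background. RNAseq had 3 replicates in each group (12 libraries) and ATACseq had 2 (8 libraries). A single knockout label covers every HK3-null library. The methods call the replicates biological without saying whether they are separate clones or cultures, so p-values measure only the spread between these samples. With a single label per genotype, loss of HK3 and any other difference between the edited and control cells cannot be told apart. Genotype differences below are differences between these labels.

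In resting phagocytes the CYBB and CYBA proteins, gp91phox and p22phox, sit in the membrane as flavocytochrome b558, where CYBB carries the electron path and CYBA stabilizes it. On activation the NCF1 protein (p47phox) is phosphorylated and moves to the membrane with the cytosolic complex that holds NCF4 (p40phox), and a Rac GTPase, mainly RAC2 in neutrophils, joins it. CYBB and NCF1 are known to be low in early myeloid cells and to be switched on as granulocytes mature.

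The promoters shown are those of the 2 members with the widest range of RNA, CYBB and NCF1, and that of CYBA, whose RNA varied little. The letters GAGGAA, the core bound by the myeloid factor PU.1, or TTCCTC on the other strand, are in capitals. The sequences are RefSeq promoters of GRCh38.p14, from 200 bases before the start up to the first base of the GENCODE gene model, read 5′ to 3′ on the strand of the gene.
CYBB promoter, chrX:37779859-37780017, plus strand: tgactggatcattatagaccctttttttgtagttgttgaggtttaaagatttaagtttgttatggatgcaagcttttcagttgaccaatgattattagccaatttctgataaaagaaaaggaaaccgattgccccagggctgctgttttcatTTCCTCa
NCF1 promoter, chr7:74773811-74774010, plus strand: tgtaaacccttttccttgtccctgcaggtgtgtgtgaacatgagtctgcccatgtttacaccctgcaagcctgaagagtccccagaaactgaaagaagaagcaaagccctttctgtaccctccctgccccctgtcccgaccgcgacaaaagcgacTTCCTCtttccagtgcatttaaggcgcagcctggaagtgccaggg
CYBA promoter, chr16:88651084-88651253, minus strand: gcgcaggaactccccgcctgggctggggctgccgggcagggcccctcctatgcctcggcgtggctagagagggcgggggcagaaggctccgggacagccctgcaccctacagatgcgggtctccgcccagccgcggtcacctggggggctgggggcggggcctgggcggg
The 200 bases before the start of CYBB held TTCCTC at -48 to -43, and those of NCF1 held it at -45 to -40, counted from the RefSeq start. CYBB also held CCAAT at -116 to -112 and at -102 to -98, and its reverse complement at -42 to -38, just past the end of the run shown. Searched on both strands, GAGGAA was present in 19.3% of 35116 such windows and CCAAT in 28.0%. The retinoid receptor element AGGTCA (9.83% of windows) and TATAAA (8.59%) were not in the CYBB, NCF1 or CYBA windows, and none of the 4 motifs was in that of CYBA.

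HK3 itself is reported first, since it is the targeted gene. Its RNA was 90, 65 and 105 normalized counts in the Cas9 control in DMSO and 344, 302 and 346 under the HK3-null label with the same solvent. In ATRA it was 1305, 1298 and 1850 in the Cas9 control and 1384, 1285 and 1975 under the HK3-null label. The targeted RNA was thus higher (3.88-fold, adjusted p = 1.11e-05, DMSO) or little different (log2 0.05, 95% interval -0.40 to 0.51, ATRA) under that label, which is used below as the samples carry it. An edit that leaves the transcript in place would not be seen in these values, so the RNA level does not check the labels. The methods report indels at the Cas9 cut site by Sanger sequencing. They also report a check of the protein by mass spectrometry in pooled knockout clones. Summed normalized counts ran from 29053838 to 31548189 per library, and the members took 0.0625% to 0.333% of them. The Cas9 control DMSO library 1 detected 16750 genes, and the remaining 11 detected 15031 to 15801.

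Between genotypes some chromosomes moved as a whole. The median log2 difference of HK3-null over the control in DMSO was 1.095 over 427 genes of chromosome 8, 0.52 on chromosome 6, -0.57 on chromosome 13, -0.75 on chromosome 5 and -0.94 on chromosome 15, and it was much the same in ATRA. The members lie on chromosomes 7, 16, 22 and X, where the medians were between -0.12 and 0.042 in both treatments. HK3 lies on chromosome 5.

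The promyelocytic identity of the line was checked by its markers. All 8 promyelocytic markers were present in every group, with a summed level of 551955 to 830363 normalized counts per library. Most of this was MPO, at a mean of 634941 in the Cas9 control in DMSO. At 2-fold or more and an adjusted p below 0.05 by limma, CTSG was lower and PTPRC higher in HK3-null in both treatments. CTSG averaged 11932 in the control and 3461 in HK3-null in DMSO. With ATRA in the control, ELANE, CTSG and MYB were lower and PTPRC higher by the same rule. The 8 markers of maturing neutrophils summed to 7230 to 8030 in the Cas9 control in DMSO, 29411 to 31028 in the Cas9 control in ATRA, 35419 to 36587 in HK3-null DMSO and 94001 to 95919 in HK3-null ATRA. The 5 eosinophil markers summed to 7261 to 8177, 514 to 641, 163456 to 171167 and 43828 to 52733 in the same order, most of it PRG2, with EPX at a mean of 3.00 in the Cas9 control in DMSO and 618 in HK3-null DMSO. The 5 monocyte markers summed to 37 to 55, 279 to 431, 673 to 714 and 580 to 709. Erythroid and platelet markers stayed at 2 to 30 in all libraries, the 4 fibroblast and epithelial markers at 8 to 323, and the 5 lymphoid markers reached 257 to 1325 with MS4A1 and CD3D below 10 in every group. The neutrophil and eosinophil sums moved with the oxidase genes between genotypes, and their part in the results below was not tested. In bulk libraries, more cells of a type and more RNA per cell cannot be told apart.

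CYBB, the catalytic subunit, had the widest genotype difference of the 6. In DMSO it was 241, 251 and 180 normalized counts in the Cas9 control and 8433, 8696 and 7412 in HK3-null. In ATRA it was 6412, 5871 and 5973 in the Cas9 control and 47716, 45030 and 44349 in HK3-null. None of the 4 groups overlapped, and the DMSO-treated HK3-null libraries were all above the ATRA-treated control libraries. The log2 difference between genotypes was 5.20 ± 0.11 (SE) in DMSO, a 36.8-fold higher level (adjusted p = 4.76e-11), and 2.91 ± 0.11 in ATRA, 7.51-fold (adjusted p = 3.90e-09). ATRA raised CYBB by 4.78 ± 0.11 in the Cas9 control (27.4-fold, adjusted p = 7.16e-11) and by 2.48 ± 0.11 in HK3-null (5.60-fold, adjusted p = 1.24e-08), on the log2 scale.

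CYBA, the partner of CYBB, varied far less. It was 3419, 3127 and 3678 normalized counts in the Cas9 control in DMSO and 4149, 4111 and 4051 in HK3-null DMSO. In ATRA the control libraries held 5511, 5867 and 5732 and the HK3-null libraries 8017, 8541 and 7755. The groups were separate, in the order Cas9 control DMSO, HK3-null DMSO, Cas9 control ATRA, HK3-null ATRA. CYBA was 1.21-fold higher in HK3-null in DMSO (log2 0.27 ± 0.06 SE, adjusted p = 0.00275) and 1.42-fold higher in ATRA (0.51 ± 0.06, adjusted p = 2.44e-05), neither reaching 2-fold. ATRA raised it 1.68-fold in the control (0.75 ± 0.06, adjusted p = 2.85e-06) and 1.97-fold in HK3-null (0.98 ± 0.06, adjusted p = 1.75e-07), the latter just under 2-fold.

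**Figure D1:**
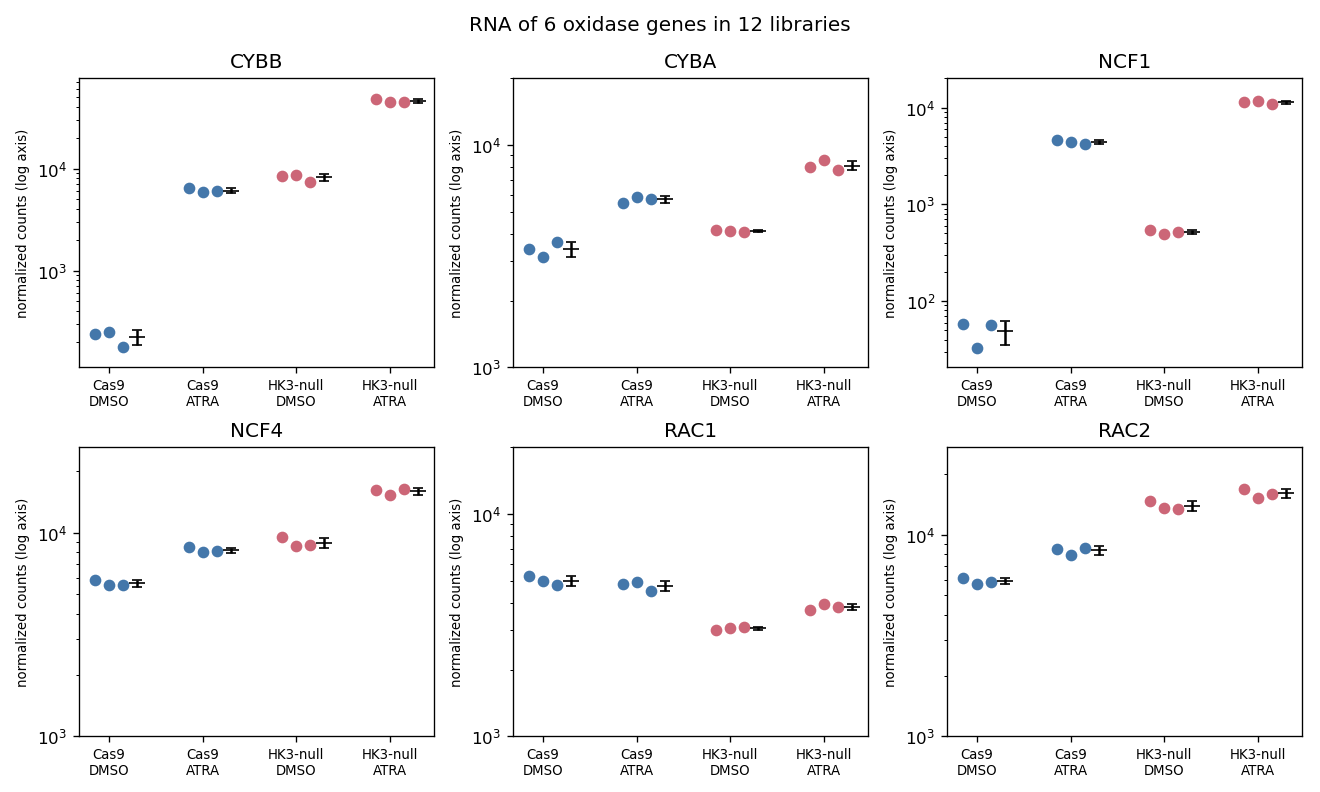
Normalized RNAseq counts of the 6 oxidase genes (vertical log axes, whose ranges differ between panels) in the 12 libraries, grouped by genotype and treatment, with each library as a point and the mean ± SD (n = 3) beside it. CYBB and NCF1 span the widest range, from 180 to 47716 and from 33 to 11704, and RAC1 is the only gene whose HK3-null libraries lie below the controls.

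NCF1, the organizer that carries the phosphorylation sites of the cytosolic complex, was close to absent in the resting control cells, with 58, 33 and 56 normalized counts. It reached 548, 491 and 518 in HK3-null DMSO, 4635, 4416 and 4189 in the control in ATRA, and 11363, 11704 and 10855 in HK3-null ATRA. The 4 groups did not overlap, and for NCF1 the ATRA-treated controls lay above the HK3-null libraries in DMSO. NCF1 was 10.9-fold higher in HK3-null in DMSO (log2 3.45 ± 0.17 SE, adjusted p = 2.61e-08) and 2.56-fold higher in ATRA (1.36 ± 0.17, adjusted p = 3.40e-05). ATRA raised it 92.8-fold in the control (6.54 ± 0.17, adjusted p = 1.98e-10) and 21.8-fold in HK3-null (4.45 ± 0.17, adjusted p = 4.43e-09).

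Reads of NCF1 are uncertain, since NCF1B and NCF1C are near-identical pseudogenes and how the authors' counting split such reads is not given in the sources used here. NCF1B averaged 13, 1525, 182 and 4551 normalized counts and NCF1C 17.3, 3310, 256 and 10844 in Cas9 control DMSO, Cas9 control ATRA, HK3-null DMSO and HK3-null ATRA. NCF1 held 47.4% to 48.0% of the 3 genes' sum in the control in ATRA and 41.9% to 43.3% in HK3-null ATRA. With the 3 rows summed, which was chosen after the data were seen, the genotype difference of NCF1 was 3.60 in DMSO and 1.53 in ATRA on the log2 scale, and the ATRA change was 6.87 in the control and 4.80 in HK3-null. Each kept the direction and the call of NCF1 alone.

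NCF4, which binds phosphoinositides, was already high at rest. It was 5880, 5512 and 5531 normalized counts in the Cas9 control in DMSO and 9488, 8617 and 8690 in HK3-null DMSO. In ATRA the control libraries held 8483, 8010 and 8148 and the HK3-null libraries 16164, 15280 and 16392. The groups were separate, with the ATRA-treated controls just under HK3-null in DMSO. The genotype difference was 1.58-fold in DMSO (log2 0.66 ± 0.05 SE, adjusted p = 9.32e-07) and 1.94-fold in ATRA (0.96 ± 0.05, adjusted p = 4.66e-08), and ATRA raised NCF4 1.46-fold in the control (0.54 ± 0.05, adjusted p = 1.02e-05) and 1.79-fold in HK3-null (0.84 ± 0.05, adjusted p = 1.75e-07).

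The 2 Rac GTPases went opposite ways between genotypes. RAC2, the Rac of blood cells, was 6087, 5697 and 5866 normalized counts in the control in DMSO and 14775, 13578 and 13386 in HK3-null DMSO. In ATRA it was 8548, 7902 and 8636 in the control and 16959, 15215 and 16001 in HK3-null. All HK3-null libraries were above all control libraries, whatever the treatment. RAC2 was 2.36-fold higher in HK3-null in DMSO (log2 1.24 ± 0.06 SE, adjusted p = 1.87e-08) and 1.92-fold higher in ATRA (0.94 ± 0.06, adjusted p = 1.25e-07). ATRA raised it 1.42-fold in the control (adjusted p = 4.15e-05) and 1.15-fold in HK3-null (0.21 ± 0.06, adjusted p = 0.0118). Without HK3-null ATRA replicate 1 the last of these gave an adjusted p of 0.0503.

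RAC1, the Rac found in most tissues, was 5272, 4997 and 4790 normalized counts in the control in DMSO and 3026, 3069 and 3104 in HK3-null DMSO. In ATRA it was 4846, 4966 and 4493 in the control and 3691, 3927 and 3823 in HK3-null. Every HK3-null library was below every control library, while the control groups in DMSO and ATRA overlapped. RAC1 fell by 0.71 ± 0.05 (SE) on the log2 scale in HK3-null in DMSO (adjusted p = 5.78e-07) and by 0.32 ± 0.05 in ATRA (adjusted p = 2.62e-04). ATRA raised it 1.24-fold in HK3-null (0.31 ± 0.05, adjusted p = 4.17e-04). In the control the change with ATRA was -0.07, with a 95% interval of -0.19 to 0.04 (adjusted p = 0.284), and it turned to 0.03 after quantile normalization.

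**Figure D2:**
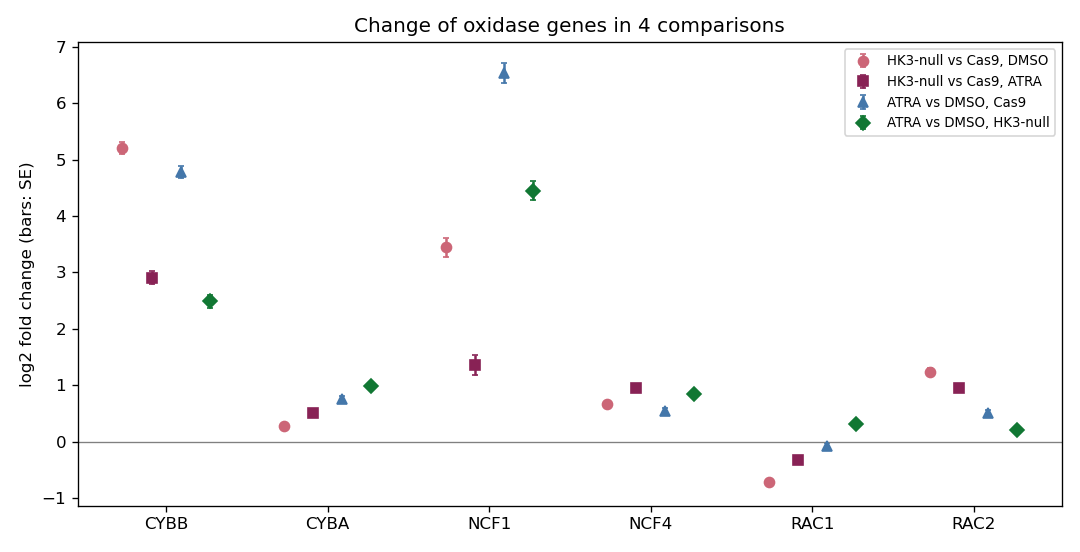
Log2 fold changes of the 6 members (vertical axis, 0 marked, bars for the SE of the limma fit) in the 4 comparisons, each with its own marker. The points of CYBB and NCF1 lie above 1 in all 4 comparisons, from 1.36 to 6.54, and RAC1 lies below 0 in both genotype comparisons.

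Across the members, 3 of 6 (CYBB, NCF1 and RAC2) were called higher in HK3-null in DMSO, and 0 lower, where a call needs a 2-fold change or more with an adjusted p below 0.05. In that comparison 11.1% of all genes tested were called higher and 8.2% lower. In ATRA 2 of 6 (CYBB and NCF1) were called higher and 0 lower, against 11.4% and 9.93% of all genes. NCF4 and RAC2 lay just under 2-fold there and passed once the median change of their chromosome, -0.12 on chromosome 22, was subtracted, which made 4 called. For ATRA against DMSO, 2 of 6 (CYBB and NCF1) were called higher in the control, where 6.84% of genes were called higher and 2.78% lower, and the same 2 in HK3-null, where the shares were 8.06% and 6.05%. After quantile normalization the share of calls that were higher in the control with ATRA moved from 71.1% to 60.9%. At an adjusted p under 0.05 with no fold limit, 6 of 6 members passed in both genotype comparisons, 5 higher and 1 lower, where 55.0% and 59.1% of all genes did. The median log2 difference of the members was 0.95 in DMSO and 0.95 in ATRA, against 0.00 and 0.01 over all genes tested. The comparisons share libraries, so their counts are not independent.

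The ATRA response was compared between genotypes by the interaction term, the log2 ATRA change in HK3-null minus that in the control. It was -2.29 ± 0.16 (SE) for CYBB (adjusted p = 7.26e-06) and -2.09 ± 0.24 for NCF1 (adjusted p = 3.18e-04), so both rose by a smaller factor in HK3-null, from a higher starting level. The difference in counts was the other way, with CYBB higher by 5861 in the control and by 37518 in HK3-null. RAC1 had a term of 0.39 ± 0.07 (adjusted p = 0.00705). NCF4, at 0.29 ± 0.07 (adjusted p = 0.0281), and RAC2, at -0.30 ± 0.08 (adjusted p = 0.0443), passed by a narrow margin. CYBA had a term of 0.24 (adjusted p = 0.128), with a 95% interval of 0.05 to 0.42. In all, 2 members passed an adjusted p of 0.05 with a positive term and 3 with a negative one, where 4.48% and 4.64% of all genes did. The term of NCF4 was lost in 9 and that of RAC2 in 12 of 21 alternatives, which left 3 members called with no filter and 3 without the variance trend. With the replicate number as a block the count over all genes rose from 1209 to 2898 and the members called stayed at 5.

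Levels were set side by side between genes only per kilobase of exon, with the union of the exons of each gene as its length. In the control in DMSO, NCF4 (2519 normalized counts per kilobase) and RAC2 (2249) were far above CYBB (46.6) and NCF1 (14.4), with CYBA at 819 and RAC1 at 607 between and no overlap between neighbours. In HK3-null ATRA, CYBB came first at 9509 per kilobase, followed by NCF4 at 7122, RAC2 at 6139, NCF1 at 3313, CYBA at 1948 and RAC1 at 461, again with no overlap between neighbours. In the control in ATRA, CYBA (1371), NCF1 (1293) and CYBB (1266) overlapped in turn. These orders depend on the length used. With the longest transcript in place of the exon union, RAC2 lay above NCF4 in all 4 groups (3997 against 3433 in the control in DMSO), and in HK3-null ATRA RAC2 (10909) and CYBB (10687) overlapped at the top. The log2 ratio of CYBB to CYBA in HK3-null DMSO moved from 0.78 to -0.13. NCF1 levels share the doubt over its copies.

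Among the 8286 ATACseq regions, which are all at least 1.5-fold apart between HK3-null and the control in ATRA by group means, the ATRA contrast was used to choose them and is described with no test. Deposited values are fragment densities. The contrast in DMSO uses libraries that took no part in the choice, but it compares the same genotypes by which the regions were chosen. A genotype difference present in both treatments enters the choice and this contrast alike. Its calls and shares are therefore not independent of the choice. In it 42.7% of the 6214 regions tested were called higher and 43.9% lower, with calls made from 1.5-fold upward at an adjusted p below 0.05. Of the 3 tested regions that list a member, 1 was called higher (CYBB) and 1 lower (CYBA).

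The CYBB region called higher, chrX:37781699-37782196 as the file gives it, has its centre 1929 bases after the start of the GENCODE gene model, in an intron and over 1 annotated exon at 37782088 to 37782183. The central 200 bases, which lie in the intron, hold GAGGAA once, in capitals, as do 34.1% of the same windows over all 8286 regions.
CYBB region centre, chrX:37781848-37782047, hg38, plus strand: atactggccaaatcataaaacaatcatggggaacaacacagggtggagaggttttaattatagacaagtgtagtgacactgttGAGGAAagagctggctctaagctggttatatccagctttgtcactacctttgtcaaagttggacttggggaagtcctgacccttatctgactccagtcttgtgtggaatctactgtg
Its signal was 18.3 and 19.7 in the control in DMSO and 38.1 and 43.1 in HK3-null DMSO. In ATRA it was 34.1 and 21.0 in the control and 48.6 and 76.8 in HK3-null. Both HK3-null groups lay above both control groups, where the difference in ATRA was part of the choice of regions. In DMSO the difference was 1.05 ± 0.34 (SE) on the log2(signal + 1) scale, 2.07-fold (adjusted p = 0.00544), but without HK3-null DMSO replicate 2 it was 0.96 with an adjusted p of 0.0548. CYBB RNA was higher in the same group.

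A second CYBB region, chrX:37814237-37814662, has its centre 988 bases past the end of the gene. It fell under the filter on mean signal (17.1) and was not tested. Its signal was 1.00 and 1.17 in the control in DMSO, 4.93 and 1.75 in the control in ATRA, 3.43 and 8.29 in HK3-null DMSO, and 24.1 and 36.9 in HK3-null ATRA. The HK3-null ATRA libraries stood above the other 6, and their distance from the controls in ATRA was part of the choice of regions.

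The region that lists CYBA, together with ZC3H18 and IL17C, is chr16:88633576-88635020, with its centre 8977 bases past the end of CYBA and over no gene of the annotation. Its central 200 bases hold none of the 4 motifs and are shown because the signal there was almost absent in HK3-null.
CYBA region centre, chr16:88634199-88634398, hg38, plus strand: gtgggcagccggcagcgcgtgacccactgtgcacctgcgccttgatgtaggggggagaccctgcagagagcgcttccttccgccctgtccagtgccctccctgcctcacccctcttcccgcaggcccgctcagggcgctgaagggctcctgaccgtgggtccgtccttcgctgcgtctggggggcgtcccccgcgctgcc
Its signal was 58.9 and 59.6 in the control in DMSO and 48.8 and 40.5 in the control in ATRA. In HK3-null it was 5.19 and 6.89 in DMSO and 6.73 and 6.82 in ATRA, far below every control library. The difference in ATRA was part of the choice of regions. The DMSO difference was -3.11 ± 0.38 (SE), 8.63-fold lower (adjusted p = 1.01e-08), while CYBA RNA was 1.21-fold higher. Which of the 3 listed genes the region acts on, if any, was not tested.

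The NCF4 region, chr22:36873568-36874267, lies in an intron of NCF4 with its centre 12929 bases after the gene start. Its signal was 145 and 165 in the control in DMSO, 154 and 99.1 in the control in ATRA, 206 and 193 in HK3-null DMSO, and 191 and 284 in HK3-null ATRA. The HK3-null libraries were above all control libraries, but the DMSO difference of 0.36 ± 0.29 (SE) did not pass (adjusted p = 0.225). The separation in ATRA follows from the choice of regions by that contrast.

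Between ATRA and DMSO, 0 of the 3 tested regions that list a member was called in the limma fit in either genotype, and 0 reached an unadjusted p under 0.05. These comparisons reuse the ATRA libraries on which the regions were chosen, so their tests and shares are not independent of that choice. Over all regions tested, 2.54% were called higher and 15.6% lower in the control, and 5.04% and 11.8% in HK3-null. The CYBB region changed by 0.47 ± 0.34 in the control (adjusted p = 0.394) and 0.58 ± 0.34 in HK3-null (adjusted p = 0.270). The Cas9 control ATRA library 2 had the lowest summed signal, 244488 against 345345 to 390632 in the other 7, and it enters the ATRA comparison of the control.

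**Figure D3:**
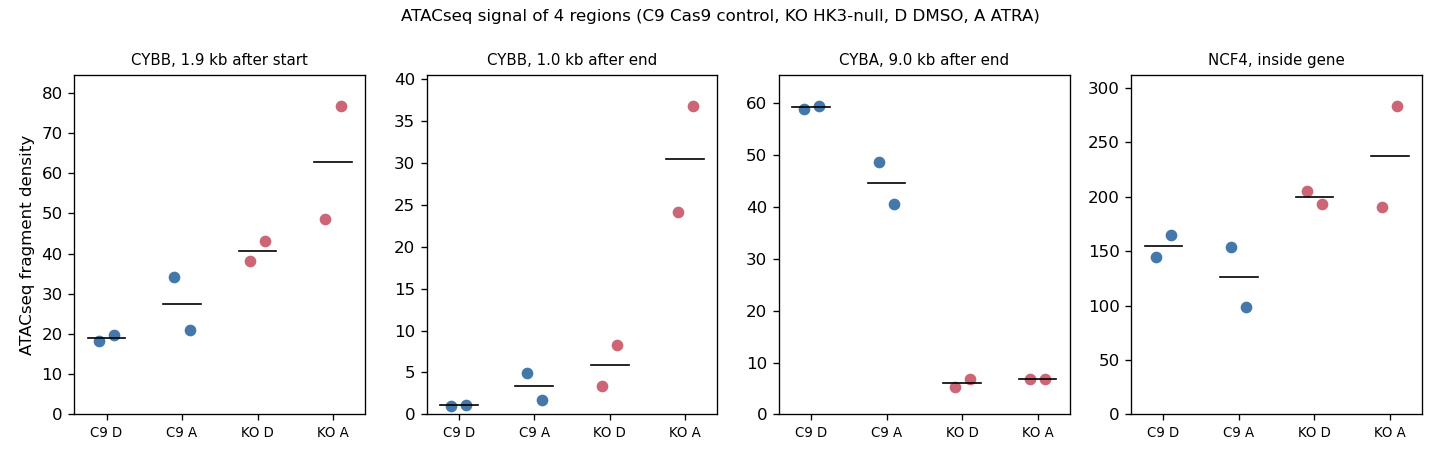
ATACseq fragment density (vertical axes from 0, with a range of their own in each panel) in the 8 libraries for the 4 regions that list a member, with each library as a point and the mean of 2 as a line. The HK3-null libraries lie above the controls at the first CYBB region and below them at the CYBA region, at 5.19 to 6.89 against 40.5 to 59.6. The regions were chosen by their difference between genotypes in ATRA.

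Of the other genes around the oxidase, counts and medians were taken over lists chosen by function. Calls between genotypes are to be read against the 11.1% of all genes called higher and 8.2% lower in DMSO, and the 11.4% and 9.93% in ATRA. Counts at an unadjusted p under 0.05 have a larger background. Even at an adjusted p under 0.05, 27.9% of all genes were higher and 27.1% lower in DMSO, and 29.6% and 29.5% in ATRA. Of 12 further helpers and relatives, 3 were tested. NOXA1, an activator of NADPH oxidases outside phagocytes, was called higher in HK3-null in both treatments, and RAC3, the third Rac, was called lower in both. NOXA1 rose from a mean of 12.3 normalized counts to 110 in DMSO (log2 3.15) and from 38.0 to 375 in ATRA (3.31). RAC3 fell from 2835 to 1296 in DMSO and from 1437 to 389 in ATRA. C17orf62, the older symbol of the chaperone gene CYBC1, was higher by 0.53 in DMSO (adjusted p = 0.00147) and 0.56 in ATRA (adjusted p = 9.17e-04), under 2-fold. The 9 others, among them NOX1, NOX3, NOX4, NOX5 and the DUOX genes, did not pass the filter on low values.

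Of 15 switches and partners of the Rac proteins, 14 were tested. In the limma fit 0 were called in DMSO and 1 was called in ATRA, VAV2 (13.0 against 133 normalized counts). With chromosome medians subtracted, VAV2 was called higher in DMSO as well. At an unadjusted p under 0.05, 5 were higher and 4 lower in DMSO, where 27.9% and 27.1% of all genes passed even the adjusted p. The list's median log2 difference was 0.05 in DMSO and 0.33 in ATRA. PAK1, a kinase that binds active Rac, rose with ATRA by 0.91 on the log2 scale in the control and by 1.22 in HK3-null, with no difference called between them (interaction 0.31, adjusted p = 0.503).

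The 20 kinases and lipid enzymes were all tested, and 4 were called higher in HK3-null in DMSO, 3 in ATRA and 0 lower in either by limma. These are 4 and 3 of 20 against 11.1% and 11.4% of all genes called higher. At an unadjusted p under 0.05, 14 were higher and 2 lower in DMSO, and 15 and 1 in ATRA. The Src-family kinases FGR and LYN were among both. FGR rose from 43.3 normalized counts in the control in DMSO to 1178 in HK3-null DMSO (log2 4.77, adjusted p = 6.33e-11), and ATRA raised it in the control by 8.12. LYN was 1.62 higher in DMSO and 1.78 in ATRA, and PIK3R5, a regulatory subunit of the lipid kinase PIK3CG, was 1.59 higher in DMSO. LYN lies on chromosome 8, and with the chromosome median subtracted its difference was 0.52 in DMSO and 0.72 in ATRA, under 2-fold. In that setting 3 of the list were called higher in DMSO and 0 in ATRA, where FGR (0.95) and MAPK14 (0.90) also fell under 2-fold. With ATRA, 5 of 20 were called higher in each genotype, against 6.84% of all genes in the control and 8.06% in HK3-null. At an unadjusted p under 0.05, 13 were higher and 2 lower with ATRA in each genotype. Even at an adjusted p under 0.05, ATRA left 20.3% of all genes higher and 21.3% lower in the control. In HK3-null these shares were 24% and 25.1%. The 5 called included PRKCB, a protein kinase C that phosphorylates NCF1 (2.68 in the control, 1.96 in HK3-null), and PIK3CG (2.92 and 3.07). The list's median was 0.32 in DMSO and 0.62 in ATRA for genotype, and 0.33 and 0.54 for ATRA in the control and HK3-null.

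Of 14 receptors that trigger the burst, 13 were tested. By limma 6 were called higher in HK3-null in DMSO and 7 in ATRA, against 11.1% and 11.4% of all genes called higher. With either treatment 0 were lower, also at an unadjusted p under 0.05. Both counts of higher genes include FCGR3B. Its value was 0 in every control library, written as log2 of 0.001, so the size of its difference depends on that value. FPR1, the formyl peptide receptor, rose from a mean of 5.67 normalized counts to 215 in DMSO and from 9 to 220 in ATRA. ITGAM, the integrin CD11b, was 3.77 higher in DMSO on the log2 scale (adjusted p = 1.12e-09), and ATRA raised it by 5.46 in the control and 2.31 in HK3-null. C5AR1, the receptor for complement C5a, was 3.62 higher in DMSO and 2.64 in ATRA. FPR1 and ITGAM are also among the maturing neutrophil markers above. The median of the list was 0.82 in DMSO and 1.14 in ATRA, also with FCGR3B, which was listed at 0 in the controls, set to a floor of 3 counts over the group.

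HVCN1, the voltage-gated proton channel that balances the charge moved by the oxidase, was one of 2 genes called among 9 for charge and peroxide handling. It rose from 34.0 to 814 normalized counts in DMSO (log2 4.65, adjusted p = 3.20e-07) and from 30.3 to 559 in ATRA (4.22, adjusted p = 5.95e-07). The other was EPX, eosinophil peroxidase, which is also an eosinophil marker and was at 3.00 and 618 in DMSO. With no filter on low values its DMSO call was lost (adjusted p = 0.0558). MPO, SOD1, SOD2, CAT, GPX1, PRDX6 and CLCN3 were not called by limma in either treatment. At an unadjusted p under 0.05, 4 of the 9 were higher and 2 lower in DMSO, and 5 and 2 in ATRA. These counts stand beside the 55.0% and 59.1% of all genes that passed even the adjusted p.

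Of 8 genes for NADPH supply, limma called 0 between genotypes in DMSO (2 higher and 2 lower at an unadjusted p under 0.05) and 0 in ATRA (2 higher and 1 lower). Over all genes 55.0% and 59.1% passed even the adjusted p. With chromosome medians subtracted, ME1, on chromosome 6, was called lower in HK3-null in DMSO. PGD, an NADPH-making enzyme of the pentose phosphate pathway, rose with ATRA by 1.1 in the control and 1.87 in HK3-null. ME1 fell by 1.02 with ATRA in the control, and by 0.86 without Cas9 control ATRA replicate 3, under 2-fold. The median of the list was -0.08 in DMSO and -0.01 in ATRA.

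Of 17 regulators of oxidase genes, 15 were tested, and 3 were called higher and 2 lower in HK3-null in DMSO, 2 higher and 2 lower in ATRA. Over all genes 11.1% and 8.2% were called so in DMSO and 11.4% and 9.93% in ATRA, so the counts in ATRA are near the background. SPI1, which encodes PU.1, was higher by 0.47 in DMSO (adjusted p = 2.01e-05) and 0.65 in ATRA (adjusted p = 1.23e-06), under 2-fold. HOXA10, a homeobox factor, fell from 62.3 to 7 normalized counts in DMSO. GATA2 was 1.56 higher in DMSO, and ATRA lowered it in both genotypes. IRF8 was 1.498 higher in DMSO and, in ATRA, fell by 1.904. CEBPB rose with ATRA by 2.96 in the control and 3.87 in HK3-null, and CEBPD was 1.76 higher in HK3-null in ATRA. CEBPD lies on chromosome 8, and with the chromosome median subtracted it was 0.70 higher in ATRA, under 2-fold. In that setting 2 of the list were called higher and 1 lower in DMSO, where CEBPD and IRF1, on chromosome 5, lost their calls. In ATRA 1 was then called higher and 2 lower.

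**Figure D4:**
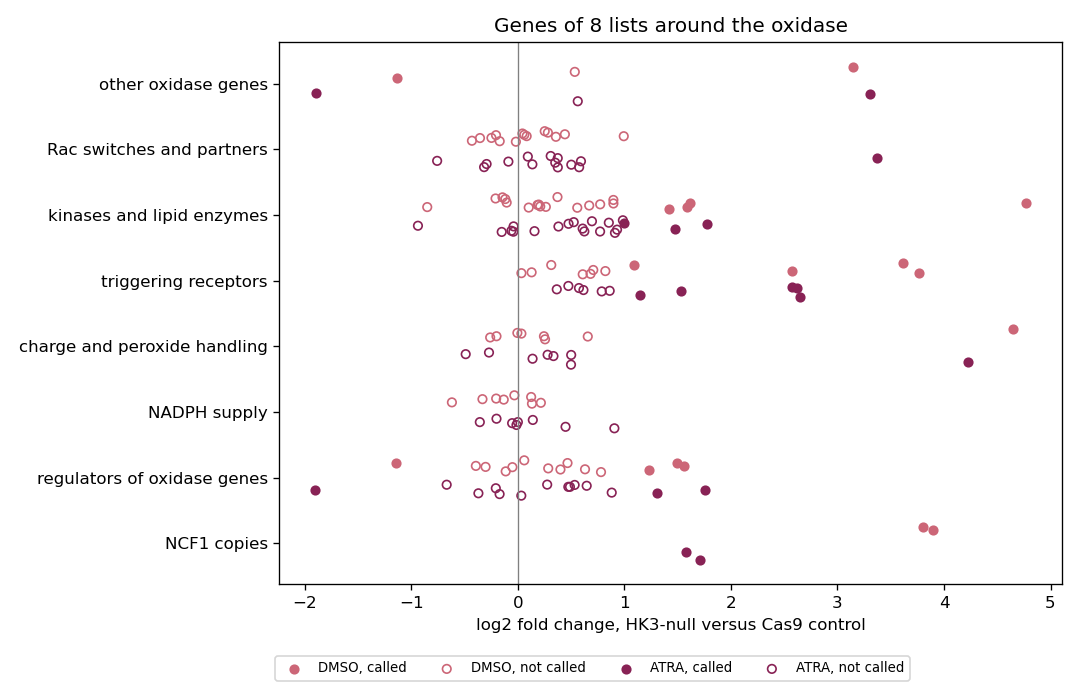
Log2 fold change of HK3-null over the control (horizontal axis) for genes of 8 lists that averaged 10 or more normalized counts in both groups compared, in DMSO and in ATRA, with filled points for called genes and open points for the rest. Called genes lie to the right in the lists of kinases and receptors, and FGR reaches 4.77 in DMSO, while most genes of NADPH supply and of the Rac partners lie nearer to 0, except VAV2 (3.37) in ATRA.

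The genes whose log2 values most resembled each member over the 12 libraries, out of 11242 with a group mean of at least 50, were taken by Pearson's r as a description, since the libraries share their groups. For CYBB they were LSP1 (0.998) and CYP4F3 (0.994), for NCF1 they were NCF1B (0.998), C10orf54 (0.997) and TNNI2 (0.996), and for CYBA they were GABARAP (0.995), TKT (0.992) and GNAI2 (0.992). LSP1, a leukocyte actin-binding protein, averaged 201, 4190, 4734 and 23529 normalized counts in the control in DMSO and ATRA and HK3-null in DMSO and ATRA, the order of CYBB. For NCF4 they were TRIOBP (0.997), ARPC1B (0.996) and CSF3R (0.996), and for RAC2 they were RASSF4 (0.995), SERPINA1 (0.995) and ANGPTL6 (0.995). RAC1 came closest to PKM (0.985), the pyruvate kinase gene, which averaged 66133 and 24219 in the control and HK3-null in DMSO, then PRPF38A (0.980) and ARL3 (0.978). Among the members, RAC1 ran against RAC2 (-0.833) and CYBB (-0.588), and the other pairs without RAC1 lay between 0.638 and 0.953.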

How the data were processed

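RNAseq of 12 libraries and ATACseq of 8 were analysed in HL60 cells. For RNAseq the authors deposited per gene the log2 of a scaled count, a whole number on the linear scale, where 0 appears as log2 of 0.001, and per the labels the tools named were DESeq2 and MACS2. For the RNAseq aligner and counter, the names were not given in the sources used here. Raising 2 to the deposited value gave the normalized counts. Counts before scaling were not used here, so sums of normalized counts stand in for depth. ATACseq reads were aligned by the authors (bwa mem), who removed duplicates, called peaks with MACS2, reduced all libraries to the size of the smallest and deposited the fragment density of merged regions as a signal. Depth behind these signals is unknown. Coordinates are those of the files, on GRCh38.

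The log2 values were fitted in R 4.3.3 with limma 3.58.1 (1 mean per group over 12 libraries, eBayes with a variance trend), and adjusted p-values follow Benjamini and Hochberg over all features tested. ATACseq was fitted as log2(signal + 1) for regions above the 25th percentile of mean signal. On simulated data at 13256 genes the RNAseq fit recovered 98 of 100 genes changed by 1.5 and 100 of 100 changed by 3 on the log2 scale in the DMSO comparison of genotypes. Named genes were all members, NCF1B, NCF1C, HK3, the 3 most changed called genes of each list per comparison with a group mean of at least 50, and the 3 most similar genes per member. SPI1, C17orf62, FCGR3B and the markers are named beyond that rule, after their values were seen. Some listed genes are not reported here and were left out of the lists. The members and lists were chosen with earlier results of these data known. Same-numbered RNAseq libraries deviated together in all 18 pairs (r of 0.259 to 0.645 over 10510 genes), a pairing seen in the data and not stated in the labels. Entries with no gene name held at most 0.00926% of normalized counts and were left out. Alternatives covered the added constant, filters, quantile normalization, the variance trend, a replicate block, chromosome medians, thresholds, subsets of groups and each library left out.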

Additional observations from a re-analysis of the deposited data

Results flagged for a closer look

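The change with ATRA differed between genotypes by the limma interaction term for 5 of the 6 members and for NCF1B and NCF1C. The log2 ATRA change in HK3-null minus that in the control was -2.29 for CYBB, -2.09 for NCF1, 0.29 for NCF4, 0.39 for RAC1 and -0.30 for RAC2. It was -2.23 for NCF1B and -2.19 for NCF1C, which are near-identical to NCF1. NCF4 (adjusted p = 0.0281, from 0.00193 to 0.0933 over the alternatives) and RAC2 (adjusted p = 0.0443, from 0.00251 to 0.111) are the least firm of these.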

How the results depend on the processing

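Over 654 values of the members under alternatives, 620 kept their call by the whole rule, 2-fold limit included, 21 lost it and 13 gained it, and 1 changed direction: the RAC1 change with ATRA in the control, at 0.034 after quantile normalization. The lost calls were 9 for the interaction of NCF4 and 12 for that of RAC2. Apart from the looser threshold, 5 calls were gained: NCF4 (1.07) and RAC2 (1.06) for genotype in ATRA and CYBA with ATRA in HK3-null (1.03) with chromosome medians subtracted, the last also without HK3-null ATRA replicate 3 (1.01), and the CYBA interaction without Cas9 control DMSO replicate 2 (adjusted p = 0.0454). Of 1406 values of other named genes, 26 lost the call and 0 gained it. At an unadjusted p under 0.05 and 1.5-fold, 5 members were called for genotype in DMSO, 4 in ATRA and 4 for ATRA in HK3-null, and subtracting chromosome medians gave 4 for genotype in ATRA. The interaction count of 5 members was 3 with no filter and 3 without the variance trend, and ranged from 3 to 5 with 1 library left out. The count of 5 came without Cas9 control DMSO replicate 2, where CYBA gained the call and RAC2 lost it. With the replicate block, the members called stayed at 3, 2, 2, 2 and 5, and no call of a member changed.

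For ATACseq, same-numbered libraries did not deviate together (r of -0.209 to 0.0539), and a replicate block left 2, 0 and 0 of the regions called. With 1 library left out the count for genotype in DMSO ranged from 1 to 2, and with no filter 1 region (the CYBB region past the gene end) was called for ATRA in HK3-null. Differences that reversed, none of them past the threshold, were those of the NCF4 region with ATRA in the control after quantile normalization (0.11) and, with 1 library left out, of the NCF4 region with ATRA in HK3-null (from -0.061 to 0.51) and the CYBA region there (from -0.020 to 0.33). The cause of these changes was not tested. Over all genes, the looser threshold called 4454, 5007, 2782, 3758 and 2865 genes against 2552, 2822, 1276, 1871 and 1209. After quantile normalization 38.1% of interaction calls were positive. Regions called for ATRA in the control were 1128, against 541 without Cas9 control ATRA replicate 2, 675 without DMSO replicate 1 and 495 without DMSO replicate 2. In HK3-null they were 1046, against 690 without ATRA replicate 1, 471 without DMSO replicate 1 and 530 without DMSO replicate 2.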
